A study of Mus musculus with 4 samples.

Results

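The genes described here are those of the cell division cycle and of DNA replication, followed in the mouse dentate gyrus after MK-801. They were chosen by symbol alone: cyclins, cyclin-dependent kinases (CDKs) and their inhibitors, Cdc genes, Mcm and origin recognition genes, replication factor C subunits, replicative DNA polymerases, centromere (Cenp) genes, aurora kinases, Bub1 genes, Pcna, Top2a and Mki67. A feature is a row of the array table. The members were the features with 1 such symbol and a value on at least 1 array, which gave 143 features of 101 genes out of 16281 features in all. A further 14 features with these symbols had no value, and Cdk3 and Pold1 were represented by such features alone.

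The study comprised 4 two-colour microarrays, 1 each at 1, 2, 4 and 6 h, of total RNA from young male C57BL/6J mice. On each array Cy3 marked the dentate gyrus RNA of mice given saline (5 µL per g body weight) and Cy5 that of mice given MK-801 (300 µg per g body weight, printed as labelled). MK-801 is a channel blocker of the NMDA-type glutamate receptor, and the dentate gyrus is the hippocampal region of the granule cells. The labels date the RNA from the last shock of the MK-801 mice, while they describe both RNAs as coming from control animals, so whether the mice of these arrays were shocked is unclear. Genotype and strain were the same in both channels, the age was given only as young, and how many mice each RNA stood for was not stated. The whole region was taken with no sorting of cells, and the table holds ratios without levels, so the presence of granule cell markers in the tissue could not be checked.

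A cell that is to divide raises D-type cyclins, which with their CDKs inactivate the Rb proteins and free the E2F transcription factors. E2F factors then switch on cyclin E and the genes that license origins and build the replication fork, and later genes assemble centromeres and drive mitosis. Most cells of the adult brain have left the cycle, but the inner edge of the dentate gyrus keeps neural progenitors that divide, and several genes with CDK or Cdc names serve neurons in other duties.

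All values are log ratios of the channels, read as log2, with each array centred on the median of its features. The sign is that of the deposited table. Which channel is in the numerator is not stated, so positive may stand for more RNA in either channel, and no direction of the treatment is given here. No time was repeated, so single times carry no error between replicates. The only errors are the spread between times and, where a gene has several features, the spread between those. In RNA of a whole tissue, fewer cells of a type and less RNA per cell cannot be told apart.

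Values were not equally complete. At 1, 2, 4 and 6 h, 79.0%, 76.4%, 63.1% and 66.2% of the 157 features with these symbols had a value, beside 77.2%, 77.4%, 64.8% and 66.9% of all 13738 features with 1 symbol. Of the member features, 85 had a value on all 4 arrays, 15 on 3, 19 on 2 and 24 on 1. A feature with all 4 values was available for 70 of the 101 genes, and these 70 enter the tests below together with the other genes measured in full, 6661 in all. The 31 genes without such a feature included markers most often used for dividing cells: Mki67, Top2a, Bub1, Aurka, Ccnb2, Ccnd1, Cdk4 and Mcm7. The 1 h array stood apart from the later ones. Over 7684 features it correlated with the arrays at 2, 4 and 6 h at Pearson's r = -0.06, -0.07 and -0.07, while the later arrays correlated with each other at 0.64 to 0.80. Over the 85 member features the corresponding values were -0.18, -0.19 and -0.09, and 0.50 to 0.54. Features of an array share its RNA and its labelling, so these are descriptions.

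As a group the 70 genes stayed close to the centre of the arrays. Their medians were -0.011, 0.057, 0.019 and -0.0026 at 1, 2, 4 and 6 h, where all 6661 genes had -0.032, -0.0059, -0.0015 and 0.0030. At the same times 35, 42, 38 and 35 of the 70 were positive. The median at 1 h took the other sign in several settings. Among these were features fitted singly (0.032), arrays centred on the features tested (0.024), leaving out genes of other duties (0.021) and quantile normalisation (0.0092). The median at 6 h did so too, among others with values on at least 3 arrays (0.014) and without centring (0.0026). Only 1 of the 70 lay past 1 in absolute log2 ratio at 1 h, against 0.661% of all genes, and 0 did at 2, 4 and 6 h, against 0.661%, 0.721% and 0.631%. Past 0.5 lay 4, 5, 2 and 5 of the 70 at these times, against 8.95%, 3.51%, 5.96% and 4.52% of all genes.

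**Figure D1:**
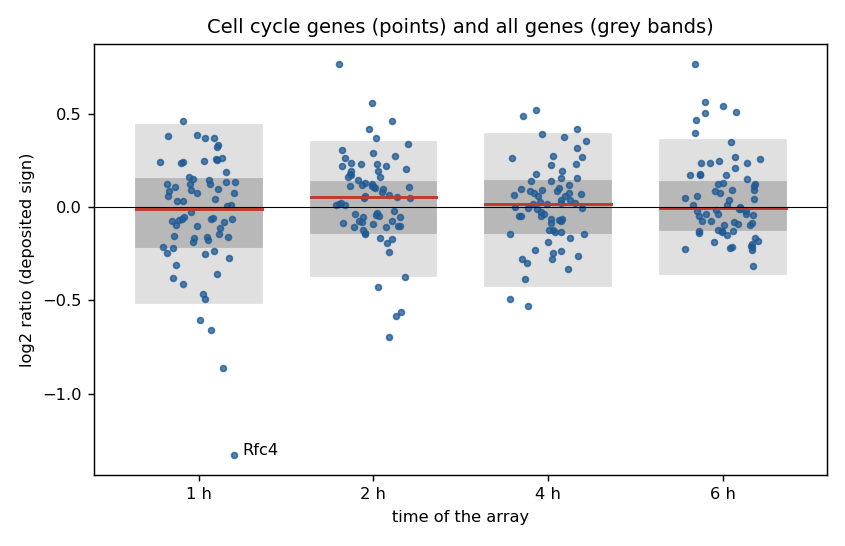
The log2 ratio (vertical axis, deposited sign) of the 70 cell cycle genes measured on all 4 arrays, by time of the array. Each point is a gene, red lines are their medians, and light and dark grey bands hold the middle 90% and 50% of all 6661 genes; most points lie in the light bands, and Rfc4 at 1 h (-1.33) is the farthest out.

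The fits, 3 in number, were run over all 6661 genes with limma, two-sided, with Benjamini-Hochberg adjustment at 0.05. For the mean over the 4 times, 0 of the 70 passed, as did 0% of all genes. This count rests on the 1 h array, since without it 7 members and 856 genes passed. With array weights 14 members and 1793 genes did. At an unadjusted p under 0.05 stood 5 positive members (Ccne1, Cdc26, Cenpq, Pola1 and Pole2) and 0 negative ones, where 6.85% of all genes were positive and 7.81% negative by that measure. The mean over 2, 4 and 6 h leaves out the array that stands apart, a choice made with earlier results of these data known. It placed 5 members past the adjusted threshold on the positive side, 7.14% of the 70 beside 6.95% of all genes. On the negative side 2 passed, 2.86% beside 5.9%. The positive share was thus close to the background. The slope on log2 hours gave 0 adjusted calls among the 70, as among all genes (0%).

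The genes called over 2, 4 and 6 h were Mcm2, Pole2, Cenpq, Cenpx and Cdk2ap1 on the positive side and Ccnd3 and Cdc25b on the negative side. Each rests on 1 feature, and the spread behind each p is that between 3 times. Without the 2 h array 8 members were called, without the 4 h array 2, Mcm2 and Ccne1, and without the 6 h array 0. Calls over all 6661 genes went the same way, from 856 (12.9%) to 937 (14.1%), 152 (2.28%) and 116 (1.74%). None of the 7 calls held when an exact 0 was taken as a value in place of a gap, and 20 of 9849 genes were called in all. The features of the 7 have no gap, so their own ratios stayed the same there. The set of genes fitted and adjusted together changed, and so did the values of other genes whose features have gaps. The part of each in the lost calls was not tested.

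Licensing genes mark where replication may start. The Mcm2 to Mcm7 subunits form the ring of the replicative helicase, which the origin recognition complex (Orc genes) and Cdc6 load onto DNA. Mcm2 read -0.23 at 1 h and then 0.46, 0.42 and 0.57 at 2, 4 and 6 h. It was thus negative at 1 h and clearly positive on all later arrays, with a mean over these of 0.48 ± 0.08 (SD over 3 arrays; limma, adjusted p = 0.0138). Its adjusted p lay between 0.00473 and 0.0956 over all settings tried, and it kept its call without the 2 h or the 4 h array but not without the 6 h array (0.0664).

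The other subunits of the ring did not follow Mcm2 alike. Mcm5 had the same course with less even values, at -0.46, 0.56, 0.16 and 0.24 (mean over the later times 0.32 ± 0.21, adjusted p = 0.0640). Mcm6 read -0.03, 0.23, 0.08 and 0.17, with an adjusted p of 0.115. Mcm4 ran opposite, at 0.24, -0.11, -0.12 and -0.13, with adjusted p = 0.165. Mcm3 read 0.24, 0.05, 0.19 and -0.14 and took both signs among the later times. Proteins of these genes work as 1 ring, but at 1 h Mcm3 and Mcm4 lay above 0 and Mcm2, Mcm5 and Mcm6 below it. Mcm7, with values at 1 and 2 h alone, read -0.02 and 0.62.

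The promoters of Mcm2, Mcm5 and Mcm6, the ring subunits positive at every later time, and of Pole2, a called gene of the fork, are shown to set side by side what stands before them. Mcm5 and Mcm6 passed no test and were picked for their signs. They are the 250 bases before the transcription start from RefSeq on GRCm38.p6, written 5′ to 3′ on the gene's strand. Capitals mark matches to the motifs searched, on either strand: E2F (TTTCCCGC, TTTGGCGC, TTTCGCGC or TTTGCCGC), CHR (TTTGAA) and CCAAT. Mcm2 lies on the minus strand at chr6:88898781-88899030, Mcm5 on the plus strand at chr8:75109259-75109508, Mcm6 on the minus strand at chr1:128359706-128359955 and Pole2 on the minus strand at chr12:69228191-69228440.
Mcm2: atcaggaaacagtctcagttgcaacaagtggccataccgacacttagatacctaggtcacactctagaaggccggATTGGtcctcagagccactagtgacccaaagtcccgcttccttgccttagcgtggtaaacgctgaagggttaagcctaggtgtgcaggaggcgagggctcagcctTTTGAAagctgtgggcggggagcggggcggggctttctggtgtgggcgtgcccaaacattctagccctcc
Mcm5: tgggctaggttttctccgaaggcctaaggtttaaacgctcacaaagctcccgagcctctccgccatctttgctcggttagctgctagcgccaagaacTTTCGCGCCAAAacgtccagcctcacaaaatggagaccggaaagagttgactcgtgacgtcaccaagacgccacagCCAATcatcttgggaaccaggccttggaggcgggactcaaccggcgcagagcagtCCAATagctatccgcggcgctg
Mcm6: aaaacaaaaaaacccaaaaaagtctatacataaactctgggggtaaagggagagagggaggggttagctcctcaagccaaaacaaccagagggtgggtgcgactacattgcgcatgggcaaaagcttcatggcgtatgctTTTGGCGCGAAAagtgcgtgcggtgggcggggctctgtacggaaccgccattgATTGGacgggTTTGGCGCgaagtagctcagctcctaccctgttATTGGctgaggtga
Pole2: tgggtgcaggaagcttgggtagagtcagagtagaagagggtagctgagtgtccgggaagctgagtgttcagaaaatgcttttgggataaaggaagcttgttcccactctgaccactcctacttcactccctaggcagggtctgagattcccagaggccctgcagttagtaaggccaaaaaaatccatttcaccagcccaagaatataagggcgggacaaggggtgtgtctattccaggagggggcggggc
Mcm5 and Mcm6 held E2F letters, in each case with a pair of matches that overlap on opposite strands, and Mcm6 held an E2F match more, 47 bases before the start. Mcm2 held a CCAAT match on the other strand and a CHR match, with no E2F match in this window, and Pole2 held none of the letters searched.

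Over the members as a whole the E2F and CCAAT letters stood before a larger share of genes than over other promoters, and the CHR letters did not against all genes of the table. An E2F match stood before 15 of 91 members with a promoter in the table (16.48%), and before 6 of 15 licensing genes. The share was 3.43% of 5364 genes measured on all 4 arrays and 2.16% of all 27025 genes of the table. CCAAT stood before 54.95% of the members, 40.77% of the measured genes and 37.49% of all genes. CHR letters, 6 bases long, stood before 17.58%, 12.79% and 18.26%. The ratios did not sort by the E2F letters: the 11 measured genes with a match, leaving out genes of other duties, had medians of -0.03, 0.06, 0.03 and 0.04 at 1, 2, 4 and 6 h, and the 36 without had 0.02, 0.02, 0.02 and 0.0010. A match is a description of letters and not of binding.

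**Figure D2:**
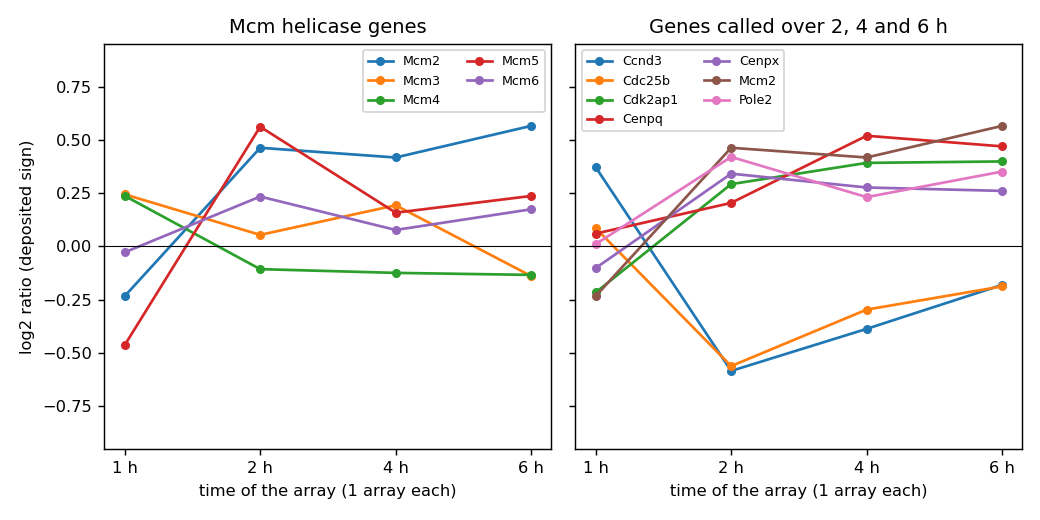
Log2 ratios (vertical axis, deposited sign) against the time of the array, 1 array per time, for 5 Mcm helicase genes (left) and the 7 genes called over 2, 4 and 6 h (right). Each line joins the values of 1 gene; Mcm2 and Mcm5 pass from below 0 at 1 h to above 0 later while Mcm4 passes the other way, and on the right Ccnd3 and Cdc25b lie below 0 at all later times.

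The remaining licensing and initiation genes measured in full gave no call. Cdc6, which loads the helicase, averaged 0.37, 0.06, -0.09 and -0.12, but its features parted after 1 h: one read 0.31, 0.23, 0.19 and 0.34, the other 0.44, -0.10, -0.37 and -0.59. Cdc45, a further initiation gene, read 0.12, 0.23, -0.05 and 0.13. Orc4, Orc5 and Orc6 of the origin recognition complex and Mcm10 stayed between -0.16 and 0.11 at every time as means of their complete features. The complete features of Orc4 lay apart, at 0.12 and -0.45 at 1 h and at -0.05 and -0.21 at 4 h. Features with gaps gave 0.30 at 1 h for Mcm10 and 0.40 at 1 h for Cdc45. Of the 11 licensing genes measured in full, Mcm2 alone was called. Orc1, Orc2 and Orc3 had values on 1 or 2 arrays, between -0.51 and 0.47 at 2 h.

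At the fork, Pole2 was the gene that was called. It encodes an accessory subunit of DNA polymerase epsilon, and read 0.01 at 1 h and then 0.42, 0.23 and 0.35. It was positive on every array, with a mean over the later times of 0.33 ± 0.10 and an adjusted p of 0.0313 (limma), which ran from 0.0122 to 0.134 over the settings and passed without 2 h but not without 4 h or 6 h. Pola1, the catalytic subunit of the polymerase that lays primers, was also positive throughout, at 0.10, 0.16, 0.27 and 0.12. Its mean over the 4 times was 0.16 ± 0.08, with an unadjusted p of 0.0454 and no adjusted call. Pola2, its partner subunit, was at 0.25, -0.09, -0.06 and 0.13, so the subunits of this enzyme did not share a sign at 2 and 4 h.

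Pcna, the sliding clamp and a usual marker of dividing cells, read 0.34, 0.10, 0.02 and -0.02. Its largest value, at 1 h, lay within the middle 90% of all genes on that array (-0.51 to 0.44). Later it was near 0 (mean over the later times 0.03 ± 0.06, limma, adjusted p = 0.714). The clamp loader subunits were uneven. Rfc4 read -1.33 at 1 h and then 0.16, -0.01 and 0.13, the 1 value of the 70 genes past 1. Rfc3 read -0.38, 0.30, 0.03 and 0.54. Rfc1 lay at 0.13, -0.24, -0.07 and -0.13, and Rfc5 between -0.17 and 0.11. Rfc3, Rfc4 and Rfc5 were negative at 1 h and Rfc1 positive. Genes with values on 3 arrays were Pold2 (0.22, -0.13 and 0.07 at 2, 4 and 6 h), Pole3 (0.30, 0.41 and 0.19) and Pold3, which read 0.75 at 1 h and 0.18 and 0.24 at 4 and 6 h.

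Cyclins, the activating subunits of the kinases, held the largest mean of the members. Ccne1, the cyclin E gene of S phase entry, read 0.38, 0.77, 0.07 and 0.77, positive on every array with a low value at 4 h. Its mean over the 4 times was 0.50 ± 0.34 (unadjusted p = 0.00823, no adjusted call), and over the later times 0.54 ± 0.40 (adjusted p = 0.0605). A further Ccne1 feature with values at 1 and 2 h gave 0.10 and -0.48, so the features differed in sign at 2 h. Without the 4 h array the later mean of Ccne1 passed, at 0.77 (adjusted p = 0.00831).

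D-type cyclins carry the signal of growth factors, and Ccnd2 is the one known for the adult progenitors of this region. Ccnd3 read 0.37 at 1 h and -0.58, -0.39 and -0.18 later, with a later mean of -0.38 ± 0.20 (limma, adjusted p = 0.0427). The call was lost whichever of the 2, 4 and 6 h arrays was left out (adjusted p 0.0628 to 0.118). Ccnd2 read 0.27, 0.28, -0.23 and -0.20, above 0 at the early times and below it at 4 and 6 h. Both of its features had that order, at 0.31, 0.13, -0.40 and -0.32 and at 0.22, 0.42, -0.06 and -0.08, with a slope of -0.22 ± 0.07 per doubling of time (SE; unadjusted p = 0.0264). Ccnd1 had values at 1 and 2 h alone, 0.21 and -0.04.

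Among later cyclins, Ccna2 of S phase and G2 read -0.07, 0.05, -0.23 and -0.21, while a feature with a value at 1 h alone gave 0.66. Ccnb2 of mitosis had 1 value, 0.67 at 1 h, and Ccne2 had 1, 0.69 at 2 h. Ccng1 and Ccng2, linked to growth arrest, averaged -0.16 to 0.01 and -0.04 to 0.39. Of the 6 cyclins measured in full, 4 were positive at 1 h and 2 at 6 h.

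The kinases measured in full gave no call. Cdk1, the kinase of mitosis, averaged 0.24, -0.19, 0.07 and -0.04, with features at 0.18, -0.44, 0.04 and -0.32 and at 0.31, 0.06, 0.09 and 0.24. Cdk2, the kinase of cyclins E and A, read 0.08, -0.43, -0.49 and 0.04. A further Cdk2 feature read -0.12 at 1 h, -2.23 at 4 h and -2.47 at 6 h, far below the first. Cdk7, which activates other CDKs and serves transcription, averaged -0.66 at 1 h and -0.02, -0.05 and -0.02 later. Both features were low at 1 h, at -0.52 and -0.80. Later they were of opposite sign, at -0.22, -0.12 and -0.19 and at 0.18, 0.02 and 0.16. Cdc7, which fires origins, stayed between -0.15 and 0.16. Cdk4 had values at 1 and 2 h, where its features gave 0.06 and 0.05, then -0.51 and 0.26.

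CDK inhibitors hold cells out of the cycle, and 0 of the 6 measured in full were called in any fit. Cdkn1a (p21), which p53 induces, read -0.31, 0.01, 0.38 and -0.01. Its further feature, with a value at 1 h alone, gave 1.20, so the features of Cdkn1a lay 1.51 apart at that time. Cdkn1b (p27) averaged 0.15, -0.04, 0.01 and 0.25, with features at -0.07, -0.24, -0.22 and 0.37 and at 0.37, 0.15, 0.25 and 0.12. Cdkn1c (p57), known for keeping stem cells quiescent, read -0.41, 0.24, 0.06 and -0.13, and a feature with a value at 6 h alone gave -2.52. Cdkn2a ranged from -0.33 at 4 h to 0.51 at 6 h. Cdkn2c was at 0.26 and then at -0.14, -0.19 and -0.07, with both features negative at each later time. Cdkn2d averaged between -0.17 and 0.05. Cdkn2b had features with values at 1 h of -0.20, 1.03 and 1.25.

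Regulators of the steps between phases gave 1 call among the 4 measured in full. Cdc25b, a phosphatase that activates Cdk1 before mitosis, read 0.09 at 1 h and -0.56, -0.30 and -0.19 later. The later mean was -0.35 ± 0.19 (limma, adjusted p = 0.0479, the highest of the called members), and the call was lost whichever of the 2, 4 and 6 h arrays was left out (0.0654 to 0.116). Cdc25a, of values at 1 and 2 h alone, read 0.29 and -0.81. Cdc20, which turns the anaphase-promoting complex on, read -0.36, 0.20, 0.18 and 0.51, with a slope of 0.29 ± 0.08 per doubling of time (SE; unadjusted p = 0.00958, the lowest of the members). Another Cdc20 feature had a value at 2 h alone, -0.16, of the opposite sign. The complex subunits Cdc26 and Cdc16 were at 0.12, 0.26, 0.14 and 0.21 and at -0.22, 0.18, 0.14 and 0.09. Cdc26 was positive on all 4 arrays (mean 0.18 ± 0.06, unadjusted p = 0.0248).

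The centromere genes build the platform on which chromosomes meet the spindle. Cenpq, of the inner kinetochore, read 0.06, 0.20, 0.52 and 0.47. It was positive throughout and highest at 4 and 6 h, with a later mean of 0.40 ± 0.17 (limma, adjusted p = 0.0348, 0.00907 to 0.134 over the settings). Cenpx, a histone-fold protein of centromeres and of DNA repair, read -0.10 at 1 h and 0.34, 0.28 and 0.26 later, an even set with a later mean of 0.29 ± 0.04 (adjusted p = 0.0321, 0.0136 to 0.133 over the settings). Both calls held without 2 h and did not without 4 h or 6 h. Cenps, the partner of Cenpx, was at 0.19, 0.19, 0.12 and 0.05 and was not called.

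Cenpa, the histone that defines the centromere, read -0.08, -0.38, -0.12 and 0.04 (adjusted p = 0.265 for the later mean). Cenph read -0.86 at 1 h and 0.12, 0.32 and 0.24 later, and a feature with values at 1 and 4 h gave 0.57 and -1.94, on the opposite side both times. The complete features of Cenpb, Cenpc1, Cenpk, Cenpm, Cenpp and Cenpv lay between -0.28 and 0.22, and another Cenpp feature gave -0.05, 0.27 and 0.13 at 2, 4 and 6 h. Aurkb, a kinase of chromosome segregation, read 0.12, 0.08, -0.03 and 0.18, while its other feature gave -0.41, -0.95 and -0.71 at 1, 2 and 6 h; with genes of at least 3 values the later mean of Aurkb took the other sign, -0.24.

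Markers of cells in cycle without full values were mixed. Mki67, the antigen of dividing cells, read -0.74 at 1 h and -0.10 at 2 h. Top2a, which untangles chromosomes, read -0.15, 0.42 and 0.30 at 1, 2 and 6 h. Bub1, of the spindle checkpoint, had a feature at -0.13, 0.24 and 0.22 at 1, 2 and 6 h and another at -0.17 at 1 h. Bub1b gave -0.81 and 0.02 at 1 h from its features. Aurka had 1 value, 0.64 at 1 h. Cenpu read 0.30, 0.18 and 0.20 at 2, 4 and 6 h, and Cenpf, Cenpo and Cdkn3 had values on 1 or 2 arrays, from -0.33 for Cenpo at 6 h to 0.71 for Cdkn3 at 6 h.

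**Figure D3:**
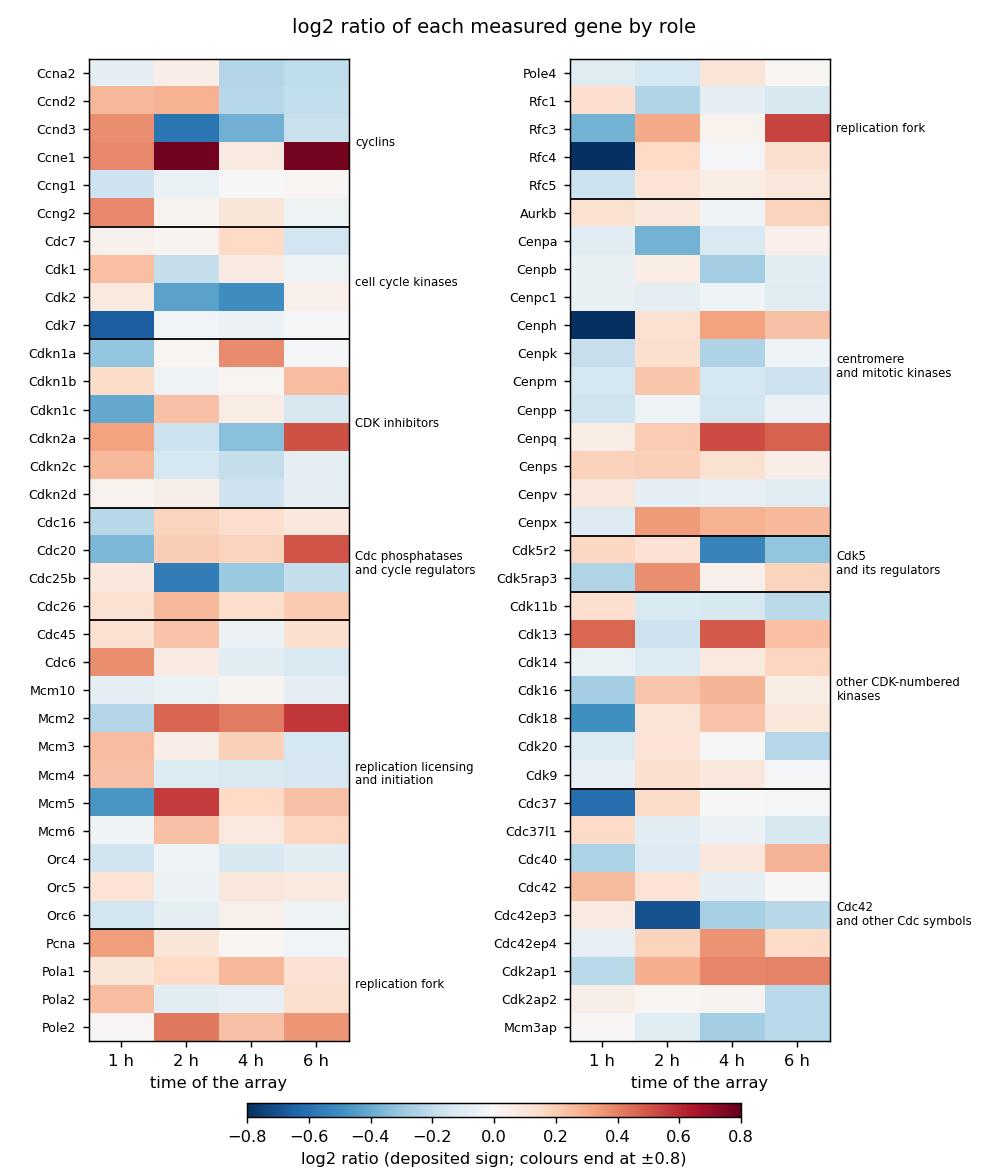
Log2 ratio (colour, deposited sign, ending at ±0.8) of each of the 70 genes measured on all 4 arrays, in rows grouped by role, at 1, 2, 4 and 6 h in columns. No role is of 1 colour at all times; Mcm2, Pole2, Cenpx and Cdk2ap1 are red and Ccnd3 and Cdc25b blue at 2, 4 and 6 h.

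Several members share the names but have other duties. Cdk5 is a kinase of postmitotic neurons that Cdk5r1 and Cdk5r2 activate. Cdk5r2 read 0.16, 0.12, -0.53 and -0.31, with a slope of -0.25 ± 0.09 per doubling of time (SE; unadjusted p = 0.0316). Cdk5 had a feature at 0.17, 0.03 and 0.19 at 2, 4 and 6 h and another at -2.24 at 4 h. Cdk5r1 features gave 0.62 at 1 h and -0.51 at 6 h in 1 case, and 0.37, -0.01 and 0.42 at 2, 4 and 6 h in the other. Cdk5rap3 read -0.24, 0.37, 0.04 and 0.18.

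Of the 7 other CDK-numbered kinases 0 were called. Cdk13, a kinase of RNA polymerase II, read 0.46, -0.16, 0.49 and 0.24, and its later mean passed without the 2 h array (0.36, adjusted p = 0.04995). Cdk18 read -0.49 at 1 h and 0.10, 0.23 and 0.09 later, and another Cdk18 feature gave 0.88 at 1 h. Cdk9, of transcript elongation, lay between -0.06 and 0.13.

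Among Cdc42 and other such symbols Cdk2ap1 was called. It encodes a protein that binds Cdk2 and belongs to a chromatin complex, and read -0.22 at 1 h and 0.29, 0.39 and 0.40 later (mean 0.36 ± 0.06; limma, adjusted p = 0.0247, 0.00763 to 0.117 over the settings). The call held without 2 h and not without 4 h or 6 h. Cdc42, a GTPase of the actin skeleton, stayed between -0.08 and 0.25. Its effector Cdc42ep3 read 0.07, -0.70, -0.26 and -0.22 (later mean -0.39 ± 0.26, adjusted p = 0.0565), and Cdc42ep4 read -0.06, 0.18, 0.36 and 0.15, with a further feature at 0.45 at 1 h alone. Cdc37, a partner of the chaperone Hsp90, read -0.61 at 1 h and 0.15, -0.0047 and -0.02 later, and another feature gave 0.32 at 1 h and -2.26 at 4 h.

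Members not yet named gave no call where measured in full, and those without a complete feature did not enter the main fits. Pole4, a small subunit of DNA polymerase epsilon, lay between -0.14 and 0.10. As means of their complete features Cdc37l1, Cdk2ap2, Cdk14 and Cdk20 lay between -0.23 and 0.17. Mcm3ap, of mRNA export, read 0.01, -0.10, -0.28 and -0.22, and the splicing gene Cdc40 ran from -0.25 at 1 h to 0.27 at 6 h. Mcm9, a helicase relative, read -0.27, -0.10 and -0.03 at 2, 4 and 6 h, and Cdk5rap1 read -0.54, 0.54 and 0.30 at 1, 4 and 6 h. Aurkc, Ccna1, Cdc25c, Cdk6 and Cdc42ep5 had features with 1 or 2 values each, from -0.74 for Cdk6 at 2 h to 0.81 for Aurkc at 6 h.

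The features of a gene are separate spots for the same symbol, and their spread bears on how far a single feature can be read. Of the 13 members with several features on all 4 arrays, the features of 3 were of 1 sign in the mean over 2, 4 and 6 h: Cdk14, Cdkn2c and Orc4. Cdk16 gave 0.48 and -0.11, Cdc6 gave 0.25 and -0.35, and Cdk11b gave -0.28, -0.31 and 0.12. Over all 868 genes with a pair of such features, 62.9% had the same sign in both, beside 3 of 11 members. The pooled SD between features of 1 gene, over all genes, was 0.28, 0.28, 0.32 and 0.29 at 1, 2, 4 and 6 h. The SD over all features was 0.31, 0.29, 0.32 and 0.29, so by this measure features of 1 gene differed about as much as features of different genes. By rank the 868 pairs shared some order, with Spearman correlations of 0.17, 0.23, 0.275 and 0.27 at these times. For the members alone the pooled SD was 0.24, 0.21, 0.19 and 0.34, beside 0.32, 0.25, 0.22 and 0.25 over their complete features.

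**Figure D4:**
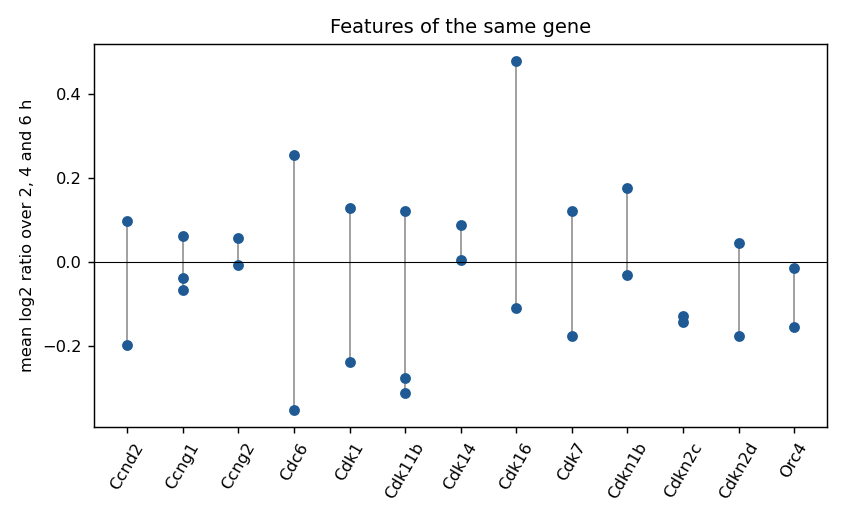
Mean log2 ratio over 2, 4 and 6 h (vertical axis, deposited sign) of each feature of the 13 cell cycle genes with several features on all 4 arrays. Points are features and grey lines join those of 1 gene; most lines cross 0, and Cdk16 (0.48 and -0.11) and Cdc6 (0.25 and -0.35) have the longest.

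Differences of over 1 between features of a gene on 1 array occurred in 11 members when features with gaps were counted. Most of the largest came from features with gaps: Cdk2 at 6 h differed by 2.52, Cdkn1c at 6 h by 2.40, Cdk5 at 4 h by 2.27, and Cdc37 and Cenph at 4 h by 2.26 each. Cdk16, with 2 complete features, differed by 1.32 at 6 h. Features with a gap leaned positive at 1 h, with 60.8% of all such features and 69.2% of the 39 member features above 0, where of complete features 45.6% and 54.1% were. Over all genes they also held more of the far values. At 1 h 155 of 2922 lay at or above 1, beside 23 of 7684 complete features. At or below -1 lay 139 of 1219 at 4 h and 92 of 1505 at 6 h, beside 48 and 43 of 7684.

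Signs over time were counted next. Of the 70 genes 34 kept 1 sign at 2, 4 and 6 h (48.6%, beside 57.1% of all genes), and 24 of these had the opposite sign at 1 h (34.3% of the 70, beside 32.2%). Only 10 members were of 1 sign on all 4 arrays (14.3%, beside 24.9%): Ccne1, Cdc26, Cenpq, Cenps, Pola1 and Pole2 on the positive side and Cdk7, Cenpc1, Cenpp and Orc4 on the negative. These are signs of means over complete features. Cdk7 and Orc4 each had a complete feature above 0 on some arrays. Features with gaps took the other sign for Ccne1 at 2 h (-0.48) and for Cenpp at 4 and 6 h (0.27 and 0.13). For the slope on log2 hours 10 members were positive at an unadjusted p under 0.05 (14.3%, beside 9.22% of all genes) and 3 negative (4.29%, beside 6.7%). The positive ones were Cdc20, Cdc40, Cdk7, Cdk18, Cdk2ap1, Cenph, Cenpq, Mcm2, Rfc3 and Rfc4. All but Cenpq were negative at 1 h. The negative ones were Ccnd2, Cdc6 and Cdk5r2, all positive at 1 h.

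Other genes of the same pathways, from lists apart from the symbols above, were read in the same fit. Of 130 listed genes 74 were measured on all 4 arrays, and over 2, 4 and 6 h 4 were called positive and 5 negative. These are 5.41% and 6.76% of the 74, near the 6.95% and 5.9% of all genes, and the counts of single lists below are to be read against the same background. In the Rb and E2F list 3 of 9 passed. E2f1, the activator of S phase genes, read 0.03, 0.31, 0.44 and 0.45 (later mean 0.40, adjusted p = 0.0212). Tfdp1, the partner with which E2F factors bind DNA, read 0.14, 0.31, 0.41 and 0.29 (0.34, adjusted p = 0.0267). The pocket protein gene Rbl1 (p107) lay on the opposite side, at 0.63, -1.47, -0.45 and -0.52 (-0.82, adjusted p = 0.0490). Each rested on 1 feature with all 4 values.

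In the list of other replication and nucleotide genes 0 of 18 were called over the later times, with medians of -0.12, 0.04, -0.07 and -0.05. Its largest means were those of Rpa3, of the single-strand binding complex (-0.37, -0.34, -0.21 and -0.18; adjusted p = 0.0519), and Rrm2, of deoxynucleotide synthesis (0.26, -0.23, -0.71 and -0.24; 0.0612). In the mitosis list 4 of 31 were called. Racgap1, of cell division after mitosis, read 0.36, -0.49, -0.52 and -0.54 (adjusted p = 0.00895), and the condensin gene Smc4 read 0.12, -0.36, -0.21 and -0.33 (0.0361). The measured subunits of the anaphase-promoting complex in this list differed in sign. Anapc11 read 0.01, 0.46, 0.30 and 0.32 (0.0265), and Anapc7 read -0.28, 0.33, 0.36 and 0.18 (0.0397), both called positive. Anapc1 read -0.17, -0.21, -0.24 and -0.14 and Anapc10 read 0.16, 0.16, -0.23 and -0.11, and neither was called; these were named after their values were seen. In the checkpoint list 2 of 16 were called, both negative. Rad9a, of the DNA damage clamp, read -0.06, -0.32, -0.47 and -0.16 (0.0475), and Gadd45g, a stress gene of growth arrest, read -0.05, -0.21, -0.25 and -0.23 (0.0470). Rprm and Sesn2 had the largest means there, 0.32 ± 0.24 and -0.30 ± 0.20 over the 4 times, and were not called.

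Markers of cell types that the tissue could hold were read beside these genes. For dividing progenitors and young neurons 10 of 14 markers were measured, with medians of 0.02, 0.04, -0.11 and -0.12 and a range from -1.85 to 0.44. At 4 and 6 h 1 and 2 of the 10 were positive. These were Nes, positive on every array (0.44, 0.10, 0.065 and 0.059), and at 6 h also Notch1 (0.18). Igfbpl1 was called (-0.83, -1.35, -1.65 and -1.85; adjusted p = 0.00132), and Sox11 (0.13, 0.08, -0.82 and -0.72) and Dcx (-0.03, 0.06, -0.05 and -0.13) were not. Oligodendrocyte progenitors, also able to divide, had 4 of 8 markers measured, with medians of 0.22, -0.17, -0.15 and -0.08 and 0 positive at the later times. Microglia had 10 of 14, with medians of -0.07, 0.02, -0.05 and 0.18 and Fcer1g called positive. Their markers were split, with Fcer1g, Tyrobp and Ctss positive and C1qa and Csf1r negative on every array.

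Choroid plexus, a neighbouring tissue, had 3 of 10 markers measured, all negative on every array, with medians of -0.03, -0.90, -0.60 and -0.70 and Ttr and Kl called. Endothelium had 7 of 12, with medians of -0.20, -0.13, -0.0034 and 0.17, and Flt1 was called negative and Esam positive. Granule cells had 6 of 12, with medians of -0.10, -0.05, -0.0004 and 0.0057, and none was called. Prox1 read -0.57, 0.04, 0.60 and 0.21, while Calb1 and Trpc6 were negative and Pcp4 positive on every array. Blood had 4 of 11, with medians of 0.25, 0.14, 0.10 and -0.06. Levels cannot be read from ratios, so which markers are near absence is unknown, and the part of these cell types in the values of the cell cycle genes was not tested.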

How the data were processed

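Total RNA of 4 two-colour arrays was compared, 1 for each of 4 times. The deposited values are log2 ratios in this reading: the log base, the direction, the image analysis and the normalisation used by the authors are not given in the sources used here. No intensities were used, so signal over background could not be examined, and the number of arrays limits the precision. An exact 0 was treated as no value. Each array was centred on the median of all its features with a value. Symbols came from the platform annotation, checked by Entrez identifier against the RefSeq gene table of GRCm38.p6 (13694 of 13738 features with 1 symbol matched, 0 symbols changed, and 52 features with several symbols and 2491 with none were left out). Features of a gene with values on all 4 arrays were averaged.

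In limma 3.58.1 (R 4.3.3), lmFit and eBayes tested the mean over the 4 times, the mean over 2, 4 and 6 h and the slope on log2 hours over 6661 genes, two-sided, at a Benjamini-Hochberg adjusted p of 0.05; the code was tested on simulated data. The spread is that between times, so p-values hold technical and biological spread alike, and a dye bias of a gene cannot be told apart from treatment, since no dyes were swapped. No time was tested alone. The members, the gene lists and the test without 1 h were chosen with earlier results of these data known, and some genes were moved between roles after their values were at hand.

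Named were the usual proliferation, Mcm, cyclin, CDK and inhibitor genes, the 6 positive and 6 negative members of largest absolute mean, members called, past 1 at any time or with features over 1 apart, and of each pathway list the 2 of largest absolute mean and those called; others were named to complete a role. Promoters were searched over the 250 bases before the start, the letters of each motif on both strands. Alternatives covered centring, scaling, weights, gaps, features, log base and left-out arrays.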

Additional observations from a re-analysis of the deposited data

Results flagged for a closer look

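Single genes that lay on one side of 0 at 1 h and on the other at 2, 4 and 6 h, each time by at least 0.15, a limit chosen after values had been seen, were listed. These were 5 of the 70 genes (7.14%), beside 7.16% of all 6661 genes. The later mean minus the 1 h value was 0.78 for Mcm5, 0.72 for Mcm2, 0.65 for the complete feature of Cdc20 (another, with a value at 2 h alone, read -0.16), 0.58 for Cdk2ap1 and -0.76 for Ccnd3. With 1 array at 1 h these differences were not tested. The slope fit is a related measure on the same values that picked these genes, so it gives no separate support. In it Mcm2, Cdc20 and Cdk2ap1 had an unadjusted p under 0.05 and none of the 5 an adjusted one.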

How the results depend on the processing

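Of 186 alternative values of the counts and medians, 148 stayed within their limits, and 0 called values took the other sign. For the mean over the 4 times, calls over all genes went from 0 to 9 with quantile normalisation, 14 with values on at least 3 arrays, 9 with the sign of 1 h turned and 1793 with array weights (14 members), and lay between 0 and 856 (members 0 to 7) with single arrays left out. For the mean over 2, 4 and 6 h, calls went from 856 to 1840 with array weights (17 members), 20 with exact 0 as a value (0 members) and 536 with values on at least 3 arrays, and lay between 116 and 937 (members 0 to 8) with single arrays left out. Slope calls lay between 0 and 12 with single arrays left out. The member median at 1 h was 0.0321 with features singly, 0.0236 with arrays centred on the features tested (chosen after seeing the data), 0.0715 over all features and 0.0207 without genes of other duties. With exact 0 as a value it was 0.0236 at 2 h and -0.0165 at 4 h. Members past the limit of 1, from 1 at 1 h and 0 later, became 2, 2 and 1 at 1, 2 and 6 h read as natural logarithms; 4, 5, 2 and 5 at 1, 2, 4 and 6 h with a limit of 0.5; 4, 4 and 2 at 1, 4 and 6 h over all features; 3 and 2 at 4 and 6 h with exact 0 as a value; 1 and 1 at these times with values on at least 3 arrays; and 1 at 2 h with quantile normalisation. Of 1120 values of 28 named genes, 991 stayed within their limits and 87 took the other sign. Causes were not tested, except that leaving out arrays uses fewer of them. No paired analysis was possible because each group is 1 array. Signal over background is unknown, so which ratios rest on dim spots is too.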
